A study of Arabidopsis thaliana with 18 samples.

Results

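Jasmonate signalling in Arabidopsis leaves runs through a small set of regulators, and 9 of them are described here across 3 genotypes and 2 water regimes. They are the jasmonate receptor subunit COI1 (AT2G39940), the basic helix-loop-helix (bHLH) activators MYC2 (AT1G32640), MYC3 (AT5G46760) and MYC4 (AT4G17880), the bHLH repressors JAM1 (AT2G46510), JAM2 (AT1G01260) and JAM3 (AT4G16430), the adaptor NINJA (AT4G28910) and the corepressor TPL (AT1G15750). The deposited files name the JAM genes AIB, BHLH13 and BHLH3 and NINJA AFPH2. The 9 genes were taken by their gene identifiers from the 27655 genes of the deposited read counts. 4 of them act as activators (COI1 and the MYC genes) and 5 as repressors (the JAM genes, NINJA and TPL).

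Jasmonoyl-isoleucine (JA-Ile) is the active hormone. It joins COI1, the F-box subunit of an SCF ubiquitin ligase, to the JAZ repressors, which are then degraded. JAZ proteins hold the MYC factors inactive, and they do so through NINJA, which recruits TPL. The JAM proteins bind the same DNA motif as the MYC proteins but lack a working activation domain, so they compete with them at target genes such as those of storage proteins and jasmonate synthesis. JAR1, the gene altered in this study, encodes the enzyme that joins jasmonic acid to isoleucine.

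The samples were rosette leaves, taken when plants were 32 days old. WT was Col-0. The line jar1-11 is labelled as a knockdown of JAR1 through a T-DNA insertion, and JAR1-OE as an overexpression line of JAR1.1. The counts hold an entry for a YFP-JAR1 transgene, for whose promoter no source used here has an entry. All plants had water for 18 days, and the drought groups then had none for 14 days while the control groups were watered on. Each of the 6 groups (WT, jar1-11 and JAR1-OE, each in control and drought) had 3 libraries of 3' tag reads, and the labels do not say whether a library came from 1 plant or a pool, and the p-values cover no more than the spread among the libraries.

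Library totals over genes ran from 4716155 to 9506727 reads, and a member had 31 to 2570 reads in a library. Levels are given as CPM, counts scaled to a common library total by the trimmed mean of M-values (TMM), and differences as log2 fold changes ± SE. The knockdown showed in JAR1 itself, with a log2 fold change of jar1-11 against WT of -2.14 ± 0.24 with water (adjusted p = 0.000585) and -3.57 ± 0.27 under drought (adjusted p = 8.53e-07), and the transgene entry had reads in all JAR1-OE libraries and 0 in the other 12 libraries. The JAR1 row was not called between JAR1-OE and WT (-0.10 ± 0.21 with water, adjusted p = 0.814, and 0.03 ± 0.21 under drought, adjusted p = 0.957). 1 library stood apart within its group. WT drought 1 held 48.1 CPM of summed flower markers, against 0.753 and 0.302 CPM in WT drought 2 and WT drought 3, and all 9 of its flower markers had reads. The JAR1-OE drought libraries held 12.6, 42.2 and 17.7 CPM of them, and the other libraries 5.75 CPM or less. Of the 3 root markers PYK10 alone had reads, at 12.5 CPM or less. In such bulk samples fewer cells of a type and less RNA per cell cannot be told apart.

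The promoters of the members that moved most are shown first. Positions are those of RefSeq's TAIR10.1, to which 27433 of the deposited identifiers matched. Each window runs from 250 bases before to 50 bases after the annotated start and is read 5' to 3' on the gene's strand. Capitals mark the core of the abscisic acid response element, ACGTG, or its reverse complement CACGT. MYC2 lies on the minus strand of chromosome 1 (chr1:11801358-11801657 for the window), JAM1 on the minus strand of chromosome 2 (chr2:19093324-19093623) and MYC4 on the minus strand of chromosome 4 (chr4:9935636-9935935).
MYC2: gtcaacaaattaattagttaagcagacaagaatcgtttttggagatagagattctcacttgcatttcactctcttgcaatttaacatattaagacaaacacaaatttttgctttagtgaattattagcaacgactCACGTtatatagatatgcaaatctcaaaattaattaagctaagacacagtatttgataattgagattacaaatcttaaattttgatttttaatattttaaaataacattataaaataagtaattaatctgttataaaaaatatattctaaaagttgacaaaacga
JAM1: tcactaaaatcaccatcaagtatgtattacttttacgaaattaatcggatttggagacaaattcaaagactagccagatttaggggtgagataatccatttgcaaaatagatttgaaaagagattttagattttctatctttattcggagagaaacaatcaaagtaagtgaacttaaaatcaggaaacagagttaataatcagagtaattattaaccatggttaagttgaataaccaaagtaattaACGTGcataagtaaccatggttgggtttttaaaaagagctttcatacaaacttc
MYC4: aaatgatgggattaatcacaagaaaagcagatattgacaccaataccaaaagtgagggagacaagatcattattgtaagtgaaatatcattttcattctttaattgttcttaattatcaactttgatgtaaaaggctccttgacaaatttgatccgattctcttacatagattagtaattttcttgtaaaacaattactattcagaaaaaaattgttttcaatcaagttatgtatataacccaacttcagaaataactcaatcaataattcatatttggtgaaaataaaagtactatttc
MYC2 and JAM1 held the core, 115 and 4 bases before the start, and the windows of the other members, MYC4 among them, did not. The motif was present in 26.7% of 27443 promoter windows of the same length, so 2 of 9 lies near that share. The match is a description of letters and not of a site in use.

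The motif that MYC and JAM proteins bind, the G-box CACGTG, was in none of the 9 windows of 300 bases and in 7.68% of all windows. In the 1000 bases before the start it was found in JAM1, JAM2 and TPL, which is 3 of 9 members against 14.8% of all genes. The stretches below, each with 10 bases on both sides of the G-box in capitals, lie at chr2:19093667-19093692 on the minus strand (JAM1), chr1:108259-108284 and chr1:108270-108295 on the plus strand (JAM2) and chr1:5421488-5421513 on the minus strand (TPL). The stretches of JAM2 overlap. They are shown because JAM1 and JAM2 are repressors of the factors that read this motif. A G-box also holds the ACGTG core.
JAM1, 309 bases before the start: ggtacatacaCACGTGtgtacacaaa
JAM2, 677 bases before the start: ctcctaaatcCACGTGaacttcacgt
JAM2, 666 bases before the start: acgtgaacttCACGTGcttttcacgc
TPL, 470 bases before the start: atttctccatCACGTGatgttcgatg
The related MYC motif CACATG was in the 1000 bases of MYC2 and JAM1, against 37.7% of all genes.

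Drought moved the MYC genes apart and raised JAM1 in every genotype. In WT, MYC2 and JAM1 rose and MYC4 fell. In jar1-11, MYC4 fell further and MYC2 was not called, and in JAR1-OE all 3 MYC genes rose. The rise of MYC4 in JAR1-OE and its further fall in jar1-11 were each lost in several of the alternatives given below. 3 of 9 members passed an adjusted p of 0.05 in WT (2 higher, 1 lower), where 39.3% of all 17678 genes tested did. 3 of 9 passed in jar1-11 (2 higher, 1 lower), where 58.4% of all genes did, and 5 of 9 in JAR1-OE (4 higher, 1 lower), where 29.1% did. The shares of members in WT and jar1-11 lay below those of all genes. The median log2 fold change of the 9 members was 0.20 in WT, 0.11 in jar1-11 and 0.37 in JAR1-OE, against -0.01, -0.01 and 0.01 over all genes tested. All tests are edgeR quasi-likelihood tests with Benjamini-Hochberg adjustment over all genes tested. All 9 members passed the filter on low counts.

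**Figure D1:**
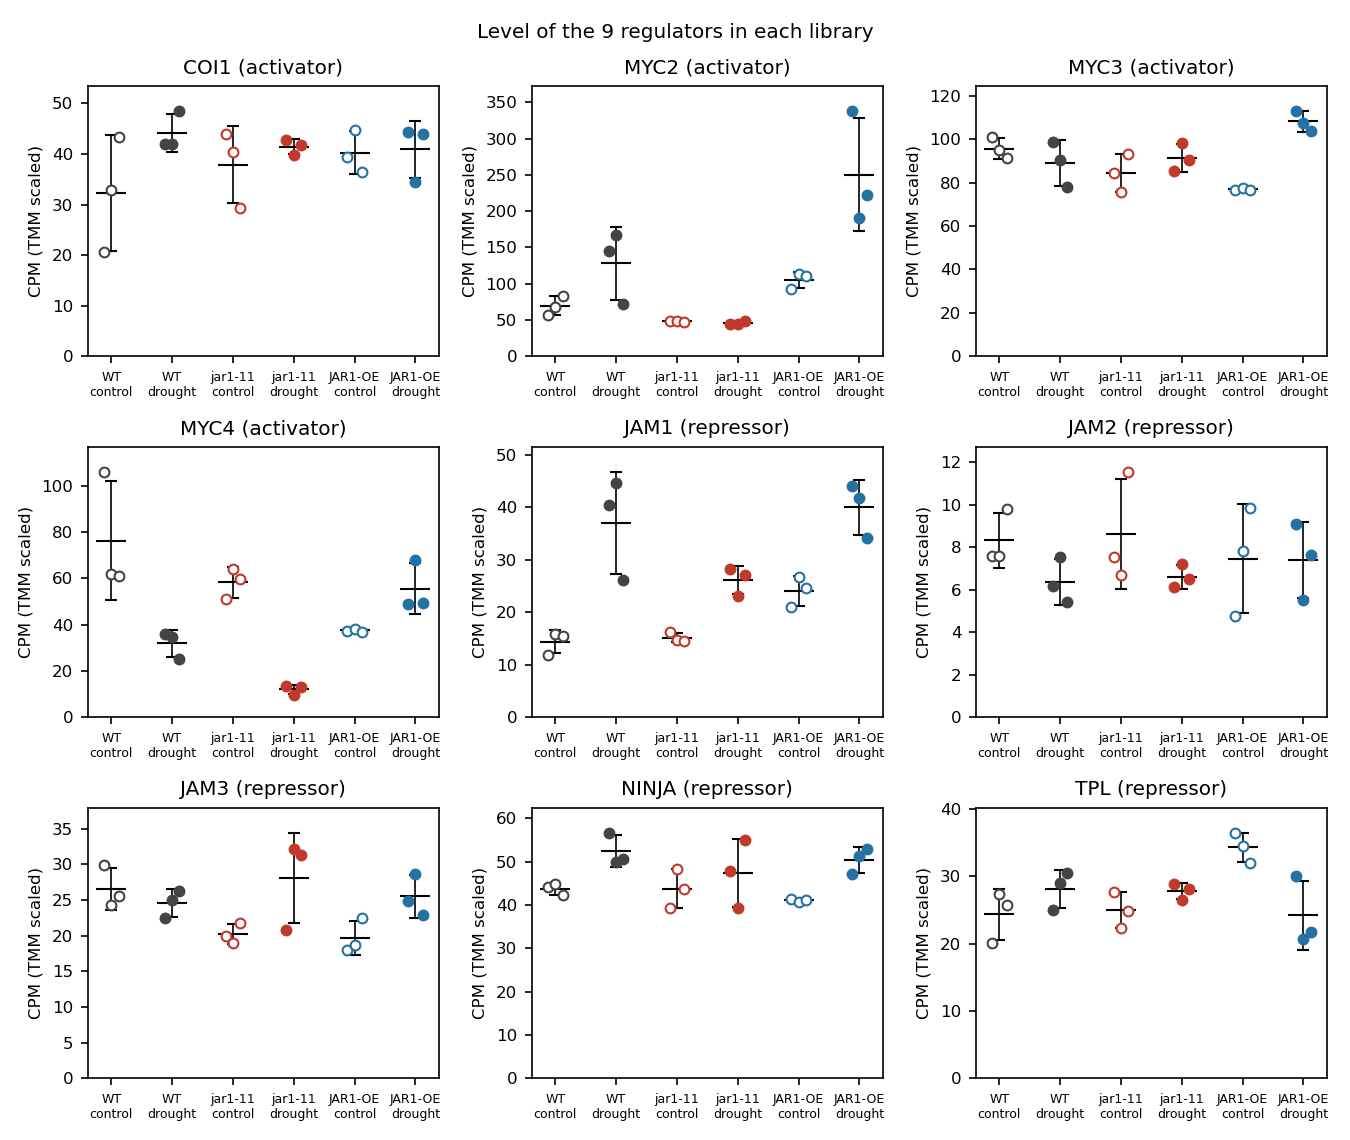
Level of each member in each library, in CPM with TMM scaling, by group. Open points are control and filled points drought libraries, and black bars show the mean ± SD of 3 libraries. JAM1 is higher under drought in all 3 genotypes, while MYC4 is lower in WT and jar1-11 and MYC2 differs most between genotypes, from 44.0 to 48.5 CPM in jar1-11 drought to 190.3 to 339 CPM in JAR1-OE drought.

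COI1, the receptor subunit, was called in none of the 10 contrasts with edgeR, DESeq2 or limma-voom, and 1 had an unadjusted p under 0.05, drought in WT. It stood at 20.5, 32.8 and 43.4 CPM in WT control and at 42.0, 42.1 and 48.6 CPM in WT drought. The groups overlapped, and WT control 1 was the lowest of all 18 libraries. The drought response of COI1 in WT was 0.44 ± 0.21 (adjusted p = 0.1), with a 95% interval of -0.01 to 0.90, and without WT control 3 it passed at 0.73 (adjusted p = 0.013). In jar1-11 it was 0.12 ± 0.21 and in JAR1-OE 0.03 ± 0.21, with intervals of -0.33 to 0.57 and -0.42 to 0.47. In the other 4 groups COI1 ranged from 29.3 to 44.8 CPM.

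MYC2, the main bHLH activator of the wound branch of the jasmonate response, stood at 57.1, 68.4 and 83.4 CPM in WT control and at 145, 167 and 71.9 CPM in WT drought. WT drought 3 lay within the range of the control libraries and the other drought libraries above it. The drought response was 0.88 ± 0.25 (adjusted p = 0.0084). Without WT drought 2 it was 0.64 (adjusted p = 0.0632), and it was 0.78 (adjusted p = 0.029) without WT drought 1, which held the flower transcripts.

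In jar1-11 MYC2 hardly varied. It stood at 49.1, 48.1 and 47.8 CPM in control and at 44.0, 45.1 and 48.5 CPM in drought. The groups overlapped, and all 6 libraries lay below the lowest WT library. The response was -0.08 ± 0.25 (adjusted p = 0.811), with a 95% interval of -0.62 to 0.47.

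In JAR1-OE, MYC2 stood at 92.7, 113 and 111 CPM in control and at 339, 190.3 and 222 CPM in drought. Every drought library lay above every control library, and JAR1-OE drought 1 was the highest of all 18. The response was 1.25 ± 0.25 (adjusted p = 0.000823), and without JAR1-OE drought 1 it was 0.97 (adjusted p = 0.00774). JAR1-OE drought 2, which held the most flower transcripts of the 3, had the lowest MYC2 level of them. Without it the response was 1.41 (adjusted p = 0.00066).

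Between genotypes MYC2 differed under drought. The log2 fold change of jar1-11 against WT was -1.48 ± 0.25 (adjusted p = 0.000285) and that of JAR1-OE against WT 0.97 ± 0.24 (adjusted p = 0.0108). The second did not pass without WT drought 3 (0.68, adjusted p = 0.0524), without JAR1-OE drought 1 (0.69, adjusted p = 0.0847) or when only the compared groups were fitted (adjusted p = 0.079). With water neither line was called for MYC2, with -0.53 ± 0.25 in jar1-11 (adjusted p = 0.893) and 0.60 ± 0.25 in JAR1-OE (adjusted p = 0.125), although the libraries of each line did not overlap those of WT.

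MYC2 counts carry a limit of their own. MYC2 shares 3241 of its 3289 bases with AT1G32630, a gene on the opposite strand, and the overlap covers all of the last 500 exon bases, where 3' tags fall. Whether reads were counted by strand is not stated in the labels or file headers. AT1G32630 stood at 15.6 to 32.3 CPM over the 18 libraries. Its drought response was 0.10 ± 0.19 in WT (adjusted p = 0.713), 0.53 ± 0.18 in jar1-11 (adjusted p = 0.0196) and 0.71 ± 0.19 in JAR1-OE (adjusted p = 0.0075). Its part in the counts of MYC2 was not tested.

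MYC3, a bHLH activator that acts beside MYC2, was the steadiest of the 3 MYC genes. It stood at 101, 94.9 and 91.4 CPM in WT control and at 98.8, 90.5 and 78.0 CPM in WT drought, and these groups overlapped. The response was -0.10 ± 0.13 in WT (adjusted p = 0.552) and 0.11 ± 0.13 in jar1-11 (adjusted p = 0.461). In JAR1-OE it stood at 76.4, 77.5 and 76.7 CPM in control and at 113, 107 and 104 CPM in drought. There the groups did not overlap, and MYC3 rose by 0.49 ± 0.13 (adjusted p = 0.00635). The difference of this response from that of WT, 0.59 ± 0.18, did not pass (adjusted p = 0.0549), but it did with DESeq2 (adjusted p = 0.00661) and limma-voom (adjusted p = 0.0455).

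MYC4, the other partner of MYC2 and MYC3, had the largest drought response of the 9 members, which was that in jar1-11. It stood at 106, 61.9 and 61.1 CPM in WT control and at 36.1, 34.5 and 25.2 CPM in WT drought. The groups did not overlap, and MYC4 fell by 1.25 ± 0.21 on the log2 scale (log2 fold change -1.25, adjusted p = 0.000111). In jar1-11 it went from 51.0, 64.3 and 59.7 CPM to 13.4, 9.77 and 13.0 CPM. These were the lowest libraries of all 18, and the log2 fold change was -2.28 ± 0.23 (adjusted p = 9.67e-08), a 4.84-fold fall.

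In JAR1-OE the direction was the other way. MYC4 stood at 37.4, 38.1 and 37.0 CPM in control and at 49.1, 68.1 and 49.5 CPM in drought. All drought libraries lay above all control libraries, with a log2 fold change of 0.57 ± 0.21 (adjusted p = 0.0489). This call sits at the threshold. It was lost with RLE scaling, DESeq2, no filter on low counts or a replicate block (adjusted p of 0.0549 to 0.0577), and when any 1 of the 6 libraries was left out (adjusted p of 0.0522 to 0.215). JAR1-OE drought 2, which held the most flower transcripts of its group, also had the highest MYC4 level of that group. Whether these are linked was not tested.

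The starting level of MYC4 differed as well. In watered JAR1-OE it lay below every watered WT library, with a log2 fold change of -1.02 ± 0.21 (adjusted p = 0.00614). 2 of 9 members passed in JAR1-OE against WT with water, MYC4 lower and JAM1 higher, where 10.5% of all genes did. For jar1-11 against WT with water 0 of 9 members passed, where 0.00566% of all genes did, which is JAR1 alone. At an unadjusted p under 0.05 there were 2 (MYC2 and JAM3, both lower), and DESeq2 and limma-voom also called 0.

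Under drought 3 of 9 members passed in jar1-11 against WT, all lower (MYC2, MYC4 and JAM1), where 34.5% of all genes passed. MYC4 was lower by a log2 fold change of -1.41 ± 0.23 (adjusted p = 0.000187). In JAR1-OE against WT 2 of 9 passed, both higher (MYC2 and MYC4), where 15.9% of all genes passed. MYC4 was higher by 0.80 ± 0.21 (adjusted p = 0.0139), but not past the threshold without WT drought 3 (adjusted p = 0.0907) or without JAR1-OE drought 2 (adjusted p = 0.0781). All contrasts draw on the same libraries, so their values stand side by side and are not independent.

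Leaf mesophyll markers fell with MYC4 under drought in WT (3 of 4 called) and jar1-11 (4 of 4 called). In JAR1-OE (3 of 4 called) they went the other way from MYC4. Of all genes 39.3%, 58.4% and 29.1% were called in WT, jar1-11 and JAR1-OE. The sum of the 4 markers (RBCS1A, LHCB1.1, LHCB1.3 and RCA, which serve photosynthesis) ranged from 9463 to 13438 CPM in the watered WT and jar1-11 libraries, from 5109 to 6278 CPM in WT drought and from 1341 to 2362 CPM in jar1-11 drought. In JAR1-OE it ranged from 23273 to 29863 CPM with water and from 13148 to 18090 CPM under drought, so there the markers were lower under drought while MYC4 was higher. With water 3 of the 4 markers were higher in JAR1-OE than in WT (RBCS1A 1.03 ± 0.22, LHCB1.1 1.53 ± 0.37 and LHCB1.3 1.18 ± 0.24), while MYC4 was lower. None of the 4 markers was at 0 in any library. Other marker lists moved under drought as well. The median log2 fold change of the guard cell markers was -0.77 in WT, -1.69 in jar1-11 and -0.59 in JAR1-OE. That of the late leaf senescence markers was 0.84, 1.16 and 1.21. The part of these marker lists in the changes of MYC4 was not tested.

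**Figure D2:**
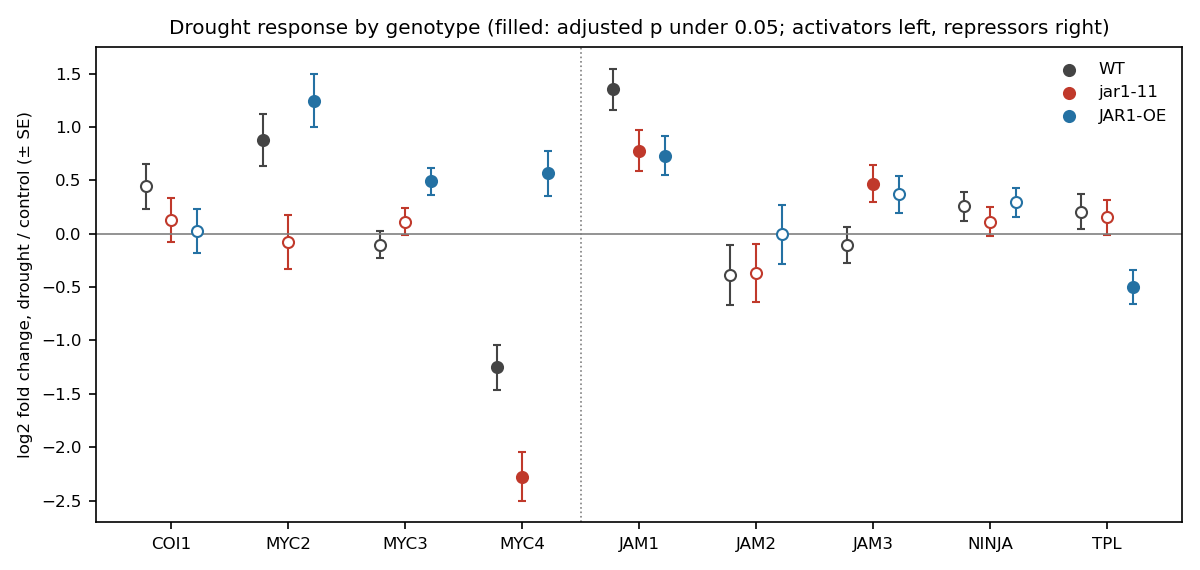
Drought response (log2 fold change of drought against control ± SE) of the 9 members in 3 genotypes, with activators left and repressors right of the dotted line. Filled points passed an adjusted p of 0.05. The MYC4 points spread from -2.28 in jar1-11 to 0.57 in JAR1-OE, whereas those of JAM1 lie between 0.73 and 1.35.

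Differences of the drought response between genotypes were tested directly. 1 of 9 members passed for jar1-11 minus WT, where 15.6% of all genes did, 1 of 9 for JAR1-OE minus WT, where 6.01% did, and 3 of 9 for JAR1-OE minus jar1-11, where 30.8% did. MYC4 passed in all 3. Its response in jar1-11 was lower than in WT by a log2 difference of -1.02 ± 0.31 (adjusted p = 0.0299), which was lost in 7 of 12 fits that left out 1 library. The response in JAR1-OE exceeded that in WT by 1.82 ± 0.30 (adjusted p = 0.00143) and that in jar1-11 by 2.84 ± 0.31 (adjusted p = 3.49e-06). Both of these held in all alternatives run. The libraries also lay apart on the first principal component (main axis of spread) of 1000 genes, which held 78.7% of their variance. Watered libraries lay at -63.7 to -44.3 on it. Drought libraries lay at 93.5 to 101.9 in jar1-11, 36.6 to 66.9 in WT and 5.6 to 7.3 in JAR1-OE. The responses of MYC4 and MYC2 ran in the reverse of this order, and those of JAM1 and TPL did not. The part of this axis in the differences between genotypes was not tested.

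The response of MYC2 in JAR1-OE exceeded that in jar1-11 by 1.32 ± 0.35 (adjusted p = 0.00782). Neither line's MYC2 response was called against WT, with -0.95 ± 0.35 for jar1-11 (adjusted p = 0.0715) and 0.37 ± 0.35 for JAR1-OE (adjusted p = 0.561). Without WT drought 3 the first was -1.24 and passed (adjusted p = 0.00722). The corepressor TPL was the third called for JAR1-OE minus jar1-11, at -0.65 ± 0.23 (adjusted p = 0.0374), and this was lost in 8 of 12 fits that left out 1 library.

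**Figure D3:**
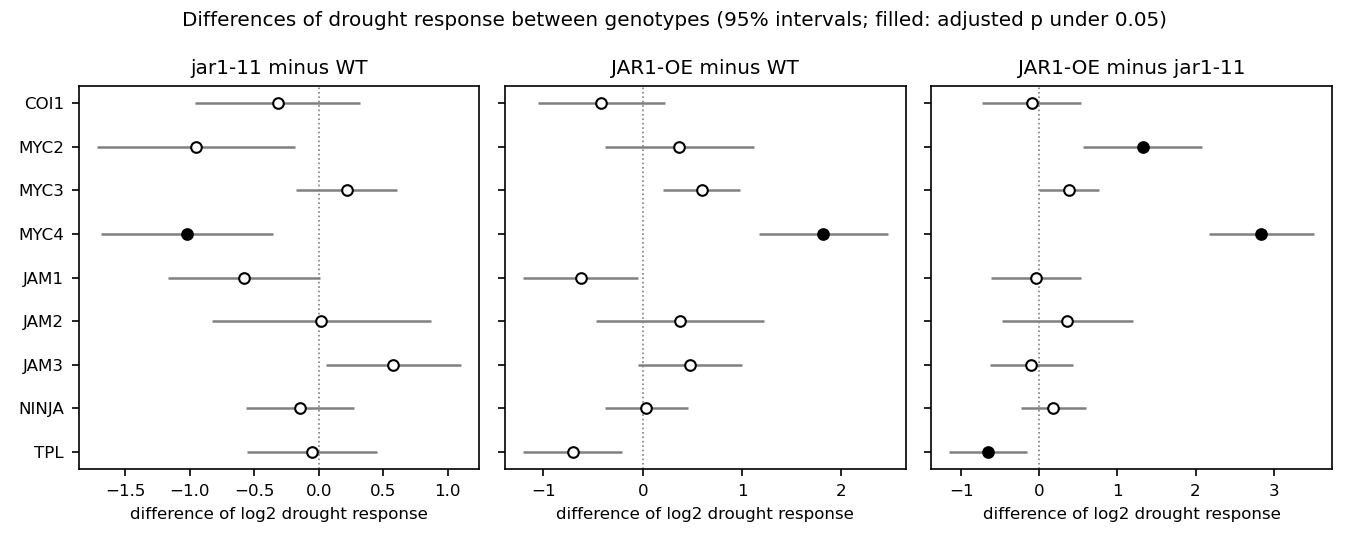
Difference of the log2 drought response between genotypes for the 9 members, with 95% intervals; filled points passed an adjusted p of 0.05. The intervals of MYC4 exclude 0 in all 3 panels, and those of COI1, JAM2 and NINJA span 0 in all 3.

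The make-up of the MYC reads shifted with these changes. The share of MYC2 among the reads of MYC2, MYC3 and MYC4 went from 29.1% ± 6.95 (SD, n = 3) to 50.04% ± 8.20 in WT, with no overlap between the groups, and was 25.3% ± 1.42 and 30.8% ± 1.25 in jar1-11. In JAR1-OE it was 47.9% ± 2.62 with water, near the share in WT drought, and 59.6% ± 7.80 under drought. The share of MYC4 went from 31.2% ± 7.84 to 13.0% ± 1.29 in WT and from 30.5% ± 3.37 to 8.13% ± 1.56 in jar1-11. In JAR1-OE it was 17.1% ± 0.899 and 13.9% ± 4.45, and those libraries overlapped. In jar1-11 drought most MYC reads came from MYC3, 61.1% ± 2.63. These shares describe reads and were not tested. They do not rank the levels of the 3 genes, since levels of different genes cannot be compared in these reads. The limit of the MYC2 counts from AT1G32630 holds for its share as well.

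**Figure D4:**
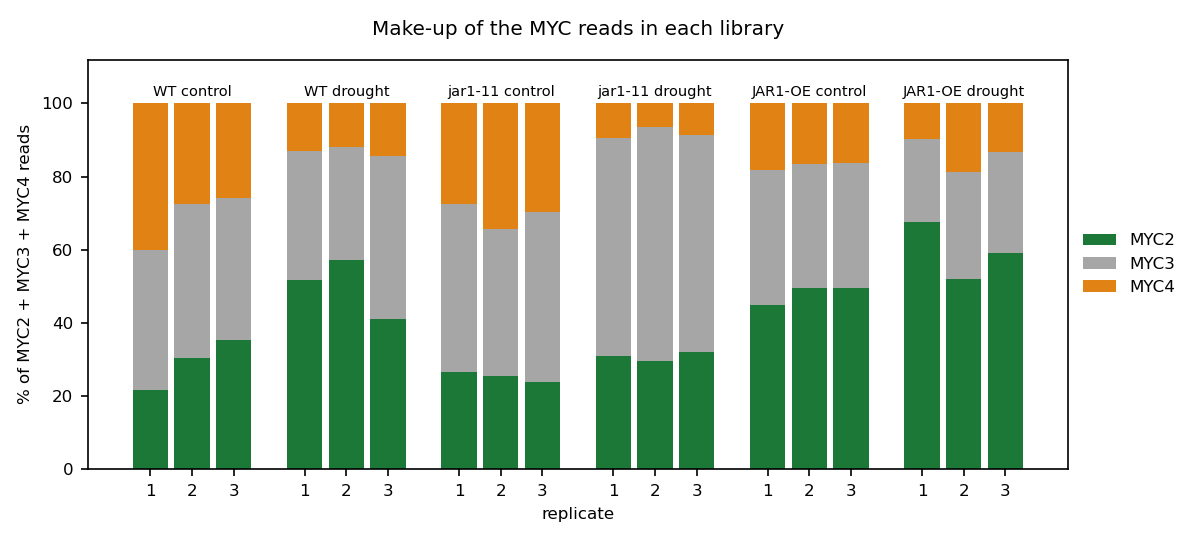
Share of MYC2, MYC3 and MYC4 among their summed reads in each of the 18 libraries, in percent. MYC2 holds the largest part of these reads in the JAR1-OE libraries, and MYC3 holds 61.1% on average in jar1-11 drought. The shares do not rank the levels of the genes.

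Among the repressors JAM1 was the one that responded in every genotype. It stood at 11.8, 15.8 and 15.6 CPM in WT control and at 40.4, 44.7 and 26.1 CPM in WT drought. In jar1-11 it went from 16.2, 14.8 and 14.6 CPM to 28.2, 23.1 and 27.1 CPM, and in JAR1-OE from 21.1, 26.7 and 24.7 CPM to 44.1, 41.7 and 34.2 CPM. The control and drought libraries did not overlap in any of the 3 genotypes. The log2 fold changes were 1.35 ± 0.19 in WT (adjusted p = 1.72e-05), 0.78 ± 0.19 in jar1-11 (adjusted p = 0.0019) and 0.73 ± 0.18 in JAR1-OE (adjusted p = 0.00578). All 3 calls held in every alternative run.

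With water JAM1 was already higher in JAR1-OE than in WT, by 0.73 ± 0.19 (adjusted p = 0.0238), and no library of the lines overlapped. This was lost without WT control 1, JAR1-OE control 2 or JAR1-OE control 3 (adjusted p of 0.0652 to 0.0871) and when only those groups were fitted. Under drought JAM1 was lower in jar1-11 than in WT by a log2 fold change of -0.51 ± 0.19 (adjusted p = 0.0405). This was lost in 4 of 6 other alternatives (limma-voom, no filter on low counts, the replicate block and only the groups compared) and in 4 of 6 fits that left out 1 library, with adjusted p up to 0.176 and a log2 fold change down to -0.37. WT drought 3 lay within the jar1-11 range. Across the 18 libraries JAM1 and MYC2 had a Pearson r of 0.74, the highest of the pairs of members, as a description of libraries that share groups and scaling.

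JAM2, a repressor of the same family, was called in none of the 10 contrasts with edgeR, DESeq2 or limma-voom, and 0 had an unadjusted p under 0.05. It had 31 to 75 reads in a library, 4.75 to 11.6 CPM, and its responses were -0.39 ± 0.28 in WT, -0.37 ± 0.27 in jar1-11 and -0.01 ± 0.27 in JAR1-OE. The intervals reached from -0.99 to 0.59 over the 3 genotypes.

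JAM3, the last of the JAM repressors, stood at 19.96, 19.0 and 21.8 CPM in jar1-11 control and at 20.7, 32.2 and 31.3 CPM in jar1-11 drought. jar1-11 drought 1 lay within the control range and the other drought libraries above it. JAM3 rose there by 0.47 ± 0.17 (adjusted p = 0.0245), which was lost when only the 2 groups were fitted (adjusted p = 0.0693) and in 4 of 6 fits that left out 1 library (adjusted p of 0.0623 to 0.124). In WT the response was -0.11 ± 0.17 (adjusted p = 0.648) and in JAR1-OE 0.37 ± 0.17 (adjusted p = 0.115). The 3' end of JAM3 shares 85 bases with AT4G16440 (NAR1) on the opposite strand. That gene had drought responses of 0.96 in WT, 1.18 in jar1-11 and 0.80 in JAR1-OE, all called, and its part in the counts of JAM3 was not tested.

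NINJA, which links JAZ proteins to TPL, was called in none of the 10 contrasts with edgeR, DESeq2 or limma-voom, and 1 had an unadjusted p under 0.05, drought in JAR1-OE. It stood at 39.3 to 56.7 CPM over the 18 libraries. Its responses were 0.26 ± 0.14 in WT (adjusted p = 0.143), 0.11 ± 0.14 in jar1-11 (adjusted p = 0.495) and 0.29 ± 0.14 in JAR1-OE (adjusted p = 0.115), with intervals of -0.04 to 0.56, -0.18 to 0.41 and -0.003 to 0.59.

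TPL, the corepressor that NINJA recruits, was called for drought in JAR1-OE alone. It stood at 36.4, 34.5 and 32.0 CPM in JAR1-OE control and at 30.0, 20.7 and 21.8 CPM in JAR1-OE drought. The groups did not overlap, and the 3 watered JAR1-OE libraries were the highest of all 18. TPL fell there by 0.50 ± 0.16 on the log2 scale (log2 fold change -0.50, adjusted p = 0.0254), which was lost in 4 of 6 fits that left out 1 library (adjusted p of 0.0602 to 0.112). Its responses were 0.20 ± 0.16 in WT (adjusted p = 0.345) and 0.15 ± 0.16 in jar1-11 (adjusted p = 0.438). Against WT with water TPL was not called in JAR1-OE (0.49 ± 0.16, adjusted p = 0.0622). The difference of its response for JAR1-OE minus WT was not called either (-0.70 ± 0.23, adjusted p = 0.0742). TPL shares 103 bases with AT1G15740 on the opposite strand, which was called in none of the drought contrasts.

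Activators were then set against repressors in each library, as the mean log2 CPM of the 4 activators minus that of the 5 repressors. Levels of different genes cannot be compared in these reads, so only the change of this value between libraries is of use. In WT it was 1.61 ± 0.06 (SD, n = 3) with water and 1.35 ± 0.16 under drought, and in jar1-11 1.47 ± 0.13 and 0.72 ± 0.07. In JAR1-OE it was 1.43 ± 0.12 with water and 1.82 ± 0.01 under drought. The value was thus lower under drought in WT and jar1-11 and higher in JAR1-OE, and no control library overlapped a drought library in any of the 3 genotypes. No test was made of a score over chosen members.

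These separations depended on single members. With MYC4 left out, an alternative chosen after seeing the data, the value was 1.53 ± 0.16 and 1.67 ± 0.15 in WT and 1.44 ± 0.15 and 1.27 ± 0.06 in jar1-11, and the libraries overlapped in both genotypes. In JAR1-OE it was 1.65 ± 0.12 and 2.04 ± 0.12 without MYC4, with no overlap. With MYC2 left out, an alternative also chosen after seeing the data, the JAR1-OE values were 1.16 ± 0.16 and 1.33 ± 0.11, and there the libraries overlapped. Those of WT (1.56 ± 0.09 and 1.03 ± 0.09) and jar1-11 (1.53 ± 0.14 and 0.64 ± 0.09) did not. With JAM1 left out, the WT values were 1.49 ± 0.05 with water and 1.49 ± 0.24 under drought.

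**Figure D5:**
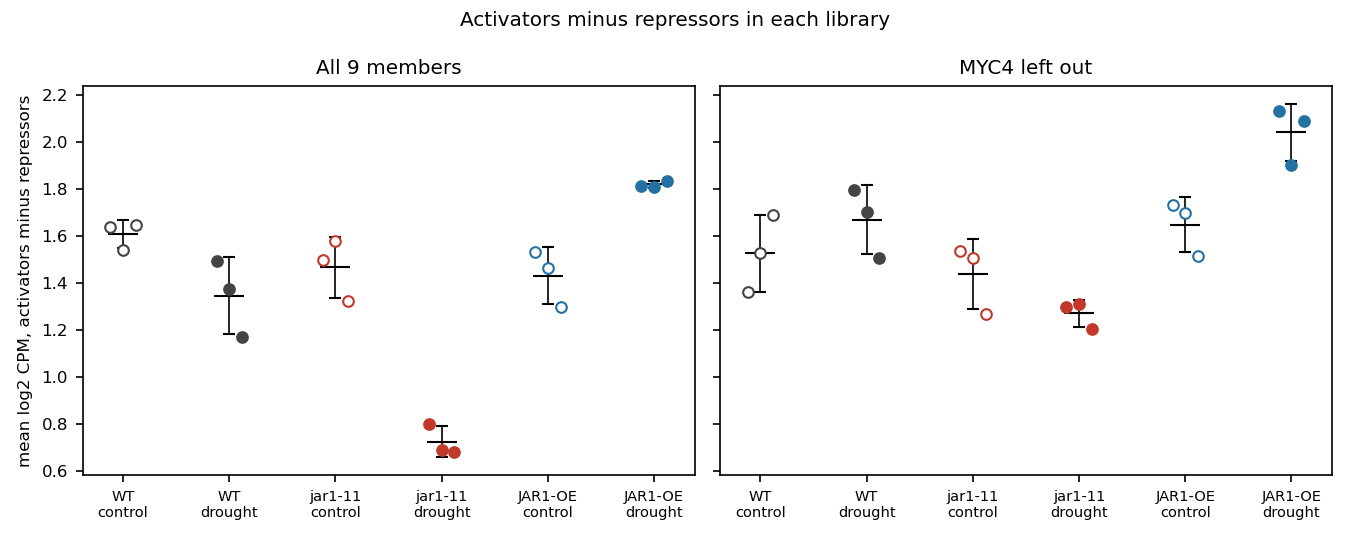
Mean log2 CPM of the activators minus that of the repressors in each library, for all 9 members and with MYC4 left out. Open points are control and filled points drought libraries, and bars show the mean ± SD of 3 libraries. With all members the drought libraries lie at 0.68 to 0.80 in jar1-11 and 1.81 to 1.84 in JAR1-OE; without MYC4 the separation is lost in WT and jar1-11.

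Relatives of the members were taken from lists of the pathway, whose counts of called genes stand beside 39.3%, 58.4% and 29.1% of all genes called for drought in WT, jar1-11 and JAR1-OE. MYC5, a bHLH relative of the MYC genes known for its role in stamens, was nearly absent with water and present under drought in each genotype. It had 3 pooled reads in WT control and 83 in WT drought, a ratio of 24.1 with a 95% counting interval of 7.96 to 119. In jar1-11 its reads were 4, 0 and 0 with water and 31, 24 and 19 under drought, and in JAR1-OE 0 in all watered libraries and 29, 28 and 21 under drought. Taking 3 reads over the group as the floor, MYC5 was at least 24.8-fold higher under drought in JAR1-OE. In WT drought its reads were 25, 29 and 29, so the library with flower transcripts did not stand out for MYC5. Intervals and floors cover counting error only.

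AFP1 and AFP3, NINJA-related proteins that act in abscisic acid signalling, rose in all 3 genotypes. AFP1 went from 1.69 ± 0.485 to 63.5 ± 7.10 CPM in WT, from 0.734 ± 0.731 to 103 ± 5.53 CPM in jar1-11 and from 1.096 ± 0.572 to 27.8 ± 9.14 CPM in JAR1-OE (SD, n = 3). Its log2 fold changes were 5.26 ± 0.36, 6.93 ± 0.38 and 4.70 ± 0.38. Of the 4 genes of this list 2 were higher and 1 lower (AFP4) in WT, and 2 were higher in each of jar1-11 and JAR1-OE. AFP1 was lower in JAR1-OE than in WT under drought by a log2 fold change of -1.19 ± 0.26 (adjusted p = 0.00385).

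Of the 4 TPL-related corepressors TPR4 rose in all 3 genotypes, by 0.60 ± 0.16 in WT (adjusted p = 0.00512), 1.09 ± 0.16 in jar1-11 (adjusted p = 8.51e-06) and 0.70 ± 0.16 in JAR1-OE (adjusted p = 0.00247), and the others were not called for drought in any. Of the 4 SCF subunits that work with COI1, ASK1 fell in all 3 genotypes (log2 fold changes of -0.55, -0.40 and -0.42), and CUL1 and RBX1 rose in jar1-11 by 0.85 ± 0.14 and 0.62 ± 0.13. The median log2 fold change of the SCF list was 0.27 in WT, 0.41 in jar1-11 and -0.15 in JAR1-OE, beside the medians of all genes given above.

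Of 13 JAZ repressors 11 could be tested. For drought in WT 0 passed with edgeR, also at an unadjusted p under 0.05; other tools were not run on the lists. 3 were higher and 3 lower in jar1-11, and 3 were higher in JAR1-OE, with medians of 0.26, 0.54 and 0.59. The 6 of 11 in jar1-11 and 3 of 11 in JAR1-OE lie near the shares of all genes, 58.4% and 29.1%. JAZ1 rose in jar1-11 (2.80 ± 0.44, adjusted p = 2.58e-05) and JAR1-OE (1.81 ± 0.43, adjusted p = 0.00349). Under drought 6 JAZ genes were lower and 2 higher in jar1-11 than in WT, where 34.5% of all genes passed, among them JAZ9 at -2.21 ± 0.38 (adjusted p = 0.000291).

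Of 10 leaf genes that the MYC proteins are known to activate, 3 were higher and 1 lower under drought in WT, 5 higher and 1 lower in jar1-11 and 6 higher in JAR1-OE, with medians of 0.98, 0.67 and 1.97. All genes passed at 39.3%, 58.4% and 29.1%, so 4 of 10 in WT and 6 of 10 in jar1-11 lie near those shares. VSP2, a vegetative storage protein, stood at 1.94, 1.22 and 1.89 CPM in jar1-11 drought, at 174, 36.8 and 57.3 CPM in WT drought and at 5029.9, 2874 and 2602 CPM in JAR1-OE drought. The 3 groups did not overlap, and their order is that of MYC2. WT drought 1, the library with flower transcripts, had the highest VSP2 level of its group, and whether these are linked was not tested. LOX2, a lipoxygenase of jasmonate synthesis, fell in WT and jar1-11 (log2 fold changes of -2.02 ± 0.41 and -6.45 ± 0.53) and rose in JAR1-OE (1.22 ± 0.40). NAC019, a transcription factor gene that MYC2 activates, rose in all 3 genotypes and most in jar1-11, by 2.98 ± 0.27 in WT, 4.67 ± 0.29 in jar1-11 and 2.70 ± 0.27 in JAR1-OE. The members of the list thus did not move as 1 group.

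MYB29, a partner of the MYC proteins in glucosinolate synthesis, followed the directions of MYC4. Its log2 fold changes were -0.96 ± 0.25 in WT (adjusted p = 0.00517), -2.86 ± 0.32 in jar1-11 (adjusted p = 3.7e-07) and 0.79 ± 0.25 in JAR1-OE (adjusted p = 0.0242). In watered JAR1-OE it was lower than in WT by a log2 fold change of -0.98 ± 0.25 (adjusted p = 0.0205). Of the 6 MYB partners 3 were lower in WT, 3 lower and 1 higher (MYB122) in jar1-11, and 2 higher in JAR1-OE (all genes 39.3%, 58.4% and 29.1%).

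The genes whose log2 CPM was most like that of a member over the 18 libraries were sought among 10681 genes (10682 for JAM2) with a mean of at least 10 CPM. For MYC2 they were NATA1, an acetyltransferase (Pearson r = 0.96), and VSP2 (r = 0.94). For MYC4 they were PUB3, a U-box protein (r = 0.98), and MRSA2, a methionine sulfoxide reductase (r = 0.97), and for JAM1 the histone gene HTA7 (r = 0.94) and AT1G30880 (r = 0.92). For the remaining members the highest r ran from 0.67 (JAM2 with AT5G44170) to 0.91 (COI1 with AT3G52610). These values describe libraries that share groups and scaling.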

How the data were processed

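3' tag reads of rosette leaves (18 libraries, 3 in each of 6 groups) were analysed, with groups taken from the labels. Libraries were made with a QuantSeq 3' mRNA kit, per the labels' protocols. Per the file headers, the deposited values are counts of unique reads per gene. For the aligner, counter, genome build and strand setting the sources used here give nothing. The YFP-JAR1 entry (732 bases, at most 0.00726% of a library's reads) stayed out of totals and tests.

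Counts were TMM scaled and filtered with filterByExpr, which kept 17678 of 27655 genes. The model, with a mean for each group, was run in edgeR 4.0.16 under R 4.3.3, and 10 contrasts were tested with the quasi-likelihood F-test, adjusted over all genes tested, at a threshold of 0.05. The biological coefficient of variation was 19.8%. SE was taken as the size of the log2 fold change over the root of its F value, and 95% intervals use 12 residual degrees of freedom, so they are approximate. Mean log2 CPM used a prior count of 2. No replicate repeated another (chi-square over its degrees of freedom 5.78 to 29.9 for replicate pairs).

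The members, the 15 lists of 78 related and marker genes and the tests were chosen with earlier results of these data known. Named list genes are up to 3 per list and contrast with the smallest p among those called. For each member the 2 most alike genes were sought. The procedure was tested on simulated data. The alternatives tried were DESeq2 1.42.0, limma-voom with limma 3.58.1, RLE scaling, a fit with no filter, a fit of only the groups compared, a replicate block, each library left out, and, chosen after seeing the data, the activator and repressor means without MYC4, MYC2 or JAM1. Of 50-base words of the members, 7 of TPL occur elsewhere in TAIR10.1, and none in the last 500 bases of any member.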

Additional observations from a re-analysis of the deposited data

Results flagged for a closer look

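Drought responses that differed between genotypes were those of MYC4, MYC2 and TPL, each by the test of the difference itself. MYC4 differed by a log2 value of -1.02 for jar1-11 minus WT, 1.82 for JAR1-OE minus WT and 2.84 for JAR1-OE minus jar1-11. In WT and jar1-11 all drought libraries were below all control libraries, and in JAR1-OE all were above. MYC2 differed by 1.32 for JAR1-OE minus jar1-11, with every JAR1-OE drought library above every JAR1-OE control library while the jar1-11 groups overlapped. TPL differed by -0.65 for JAR1-OE minus jar1-11. The call of TPL was lost in 8 of 12 fits that left out 1 library, and that of MYC4 for jar1-11 minus WT in 7 of 12.

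The YFP-JAR1 entry, which no comparison uses, reached 558 reads in JAR1-OE drought 1, against 0 in the 12 libraries of the other genotypes. JAR1-OE drought 1 also had the highest MYC2 level, 339 CPM. JAR1-OE drought 2, with 26 reads of the entry, had the lowest MYC2 level of its group, 190.3 CPM. The JAR1-OE control libraries did not follow this order. They had 214, 88 and 307 reads of the entry and MYC2 levels of 92.7, 113 and 111 CPM. Reads of the entry are not scaled to library totals. With 3 libraries in a group no relation was tested.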

How the results depend on the processing

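Of 23 member calls over the 10 contrasts, 13 held in every alternative run and 10 were lost in at least 1, none with a change of direction. The count of members called moved as follows. For JAR1-OE against WT with water, 2 in the reported fit, it was 4 with DESeq2 and 1 with only the groups compared. For JAR1-OE against WT under drought, 2 as reported, it was 1 with only the groups compared. For the difference of response jar1-11 minus WT, 1 as reported, it was 0 with only the groups compared, and for JAR1-OE minus WT, 1 as reported, it was 3 with DESeq2 and 2 with limma-voom. Leaving out 1 library gave 3 to 4 members for drought in JAR1-OE (5 as reported), 1 to 2 for JAR1-OE against WT with water, 0 to 2 for it under drought, 0 to 3 for jar1-11 minus WT, 1 to 2 for JAR1-OE minus WT, 2 to 4 for drought in WT, and 2 to 3 for drought in jar1-11, for jar1-11 against WT under drought and for JAR1-OE minus jar1-11. Cause was not tested, beyond the fewer samples of these fits.

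In the labels the drought libraries are numbered on from the control libraries of their line, and here each group is numbered from 1. These replicate numbers do not pair the samples. The deviations of same-numbered libraries correlated at -0.28 to 0.18 over 45 pairs of libraries, 8 of them above 0.1. With the replicate block 3, 3 and 4 members were called for drought in WT, jar1-11 and JAR1-OE, and 2 for jar1-11 against WT under drought. Counts over all genes moved by over 1.5 times for jar1-11 against WT with water (13 with DESeq2 and 2 with only the groups compared, against 1), JAR1-OE against WT with water (871 with only the groups compared, against 1859) and JAR1-OE minus WT (1683 with DESeq2, against 1062). Leaving out 1 library moved them as far in JAR1-OE against WT with water (556 without JAR1-OE control 1, 649 without JAR1-OE control 3, 976 without WT control 1), jar1-11 against WT under drought (3737 without jar1-11 drought 2, against 6105), JAR1-OE against WT under drought (1586 without WT drought 3, 1814 without JAR1-OE drought 1, against 2814), jar1-11 minus WT (1458 without jar1-11 drought 2, 1704 without WT drought 1, 1763 without jar1-11 control 2, against 2761) and JAR1-OE minus WT (569 to 631 without WT drought 2, WT drought 3, JAR1-OE control 1, JAR1-OE control 3, JAR1-OE drought 1 or JAR1-OE drought 2). The mean of activators minus repressors was 2.40, 1.95, 2.15, 1.12, 2.14 and 2.52 over the MYC and JAM genes alone, in WT, jar1-11 and JAR1-OE with control before drought, and kept the direction of each drought change. JAM2 had the fewest reads of the members, 31 to 75 a library.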

Other observations

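The auxin receptors related to COI1 changed where COI1 was not called. Under drought TIR1, AFB1 and AFB2 fell in WT, jar1-11 and JAR1-OE, with log2 fold changes of TIR1 of -0.57 ± 0.16 in WT and -1.23 ± 0.16 in jar1-11, and of AFB1 of -2.01 ± 0.24 in JAR1-OE. AFB3 rose in JAR1-OE (0.47 ± 0.14). With water TIR1 and AFB1 were higher in JAR1-OE than in WT, by 0.61 ± 0.16 and 0.90 ± 0.23. These calls stand beside 39.3%, 58.4% and 29.1% of all genes called for drought in WT, jar1-11 and JAR1-OE. With water 10.5% of all genes were called in JAR1-OE against WT.

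Of the 5 DELLA genes, which encode gibberellin-regulated repressors that bind JAZ proteins, 3 fell under drought in each genotype, and 2 rose in WT and jar1-11 and 1 in JAR1-OE. Of all genes 39.3%, 58.4% and 29.1% were called in WT, jar1-11 and JAR1-OE. GAI fell by a log2 fold change of -1.19 ± 0.17 in WT, -1.95 ± 0.18 in jar1-11 and -0.94 ± 0.17 in JAR1-OE, and RGL1 fell in all 3. RGL3 rose in WT (2.17 ± 0.38), jar1-11 (1.80 ± 0.48) and JAR1-OE (1.57 ± 0.33), and RGL2 rose in WT (1.95 ± 0.67, adjusted p = 0.0274) and jar1-11 (1.96 ± 0.64, adjusted p = 0.0131). Of the 4 histone deacetylases and Mediator subunits, HDA19 fell in WT (-0.47 ± 0.17) and HDA6 rose in jar1-11 (0.46 ± 0.18).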
